A study of Homo sapiens with 6 samples.

Results

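The 10 genes described here encode surface antigens of B cells that are used to diagnose B cell lymphoma or to target it with antibodies and engineered cells, together with the complement receptors of the same surface. They were chosen as a fixed list of symbols, with earlier results of these data known. The list is MS4A1 (CD20), CR2 (CD21), CR1 (CD35), FCER2 (CD23), CD22, CD72, CD37, CD24, CD38 and MME (CD10). All were looked up by NCBI gene identifier among the 23459 genes of the deposited count table. All 10 have a row, and 9 passed the filter on low counts, which kept 12010 genes in all. The cells are Raji, an established line of Burkitt's lymphoma that carries Epstein-Barr virus and that the labels place as germinal centre-derived. The control shRNA group (3 libraries) carried the non-target hairpin SHC002, and the OBF1 shRNA group (3 libraries) carried hairpin OBF1sh1 against POU2AF1, the gene of the B cell coactivator OBF1. Cells of both groups had been exposed to lentivirus for 5 days and then kept for 7 days in 3 μg/ml puromycin. With 1 hairpin against OBF1, effects of the hairpin sequence itself cannot be told apart from those of lower OBF1. The labels do not say that replicate libraries came from separate cultures, so p-values reflect no more than library-to-library spread, which may be technical.

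Mature B cells carry CD20, CD22, CD37 and CD72 through most of their life. CD21 binds fragments of complement C3 and, in a surface complex with CD81, lowers the threshold for B cell receptor signalling; it is also the receptor by which Epstein-Barr virus enters B cells. CD23 marks naive and activated B cells outside the germinal centre, whereas CD10 and CD38 mark the germinal centre and are used in that sense in lymphoma diagnosis.

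The libraries held between 29569281 and 32612429 counts. POU2AF1 was at 512, 516 and 512 CPM (normalised counts per 1000000, after trimmed-mean scaling of library sizes) in control shRNA libraries and at 244, 241 and 241 CPM in OBF1 shRNA libraries, so the targeted transcript was lower in every OBF1 shRNA library. All 8 B cell markers listed for a check of the label (among them CD79A, PAX5 and EBF1) passed the filter on low counts, with a summed level of 4328 to 4572 CPM in control shRNA and 8650 to 8836 CPM in OBF1 shRNA libraries. Most of that sum and of its difference was CD74, named after its values were seen, at means of 2623 and 6674 CPM. Of the 8 markers, 7 were called higher (37.5% of all tested genes were) and 1, CD79B, lower (37.9% of all). CD74 alone of these rose 1.5-fold or more, and the median log2 fold change of the 8 was 0.46. Across all tested genes, edgeR called 4508 higher and 4550 lower with OBF1 shRNA (quasi-likelihood test with p adjusted over all tested genes, under 0.05), or 3476 higher and 5778 lower when libraries were scaled by their sizes alone, which moved log2 fold changes by a median of -0.109.

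Among the antigens, 5 rose, 3 fell and 1, CR1, did not pass the test, while CD24 was too low to test. The 8 called of 9 tested compare with 75.4% of all tested genes called in this comparison, so a call by itself sets the antigens little apart from other genes. A called change reached 1.5-fold or more in 7 of the 9, against 23.3% of all tested genes, 5 of them higher (12.9% of all) and 2 lower (10.4% of all). The groups did not overlap for any of the 9, as for 76.6% of tested genes. The median log2 fold change of the 9 was 0.70, beside -0.01 over all tested genes. Because the list was chosen with earlier results of these data known, these shares and medians describe it and test nothing. The gains were in FCER2, MS4A1, CD72, CR2 and CD22, and the losses in CD38, MME and, by a small amount, CD37. In bulk RNA, fewer cells carrying a transcript and less of it per cell cannot be told apart.

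**Figure D1:**
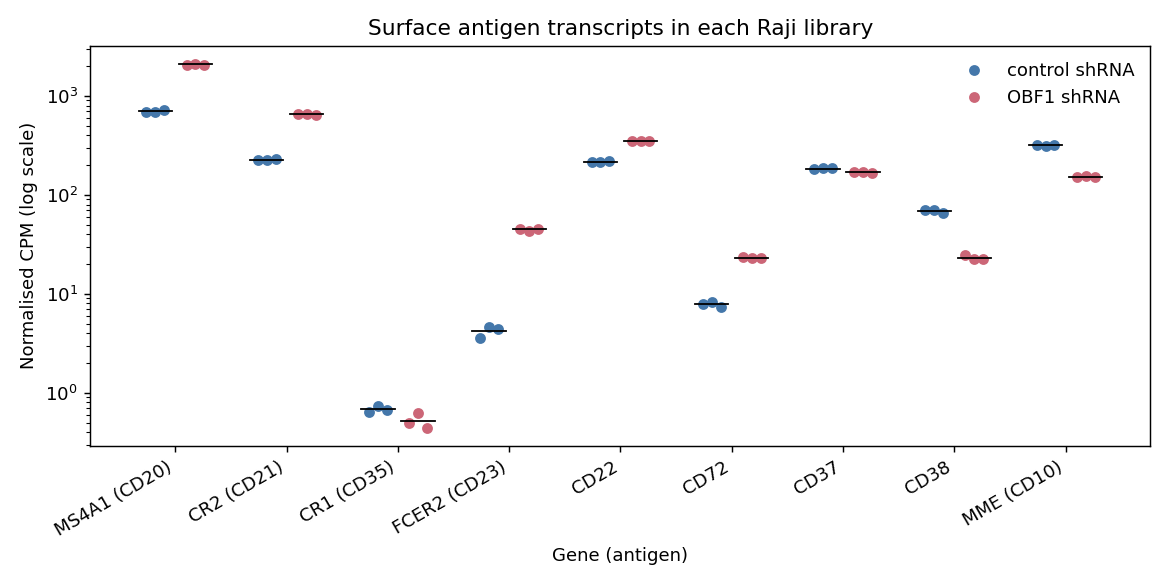
Normalised CPM on a log axis for the 9 tested antigens, with 1 point per library (blue, control shRNA; red, OBF1 shRNA) and a line at each group's mean. MS4A1 was the most abundant at 702 and 2078 CPM and CR1 the least abundant of those drawn at 0.684 and 0.521 CPM.

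MS4A1 encodes CD20, a multi-pass membrane protein and the target of rituximab. The control shRNA libraries held 696, 692 and 719 CPM of it and the OBF1 shRNA libraries 2066, 2096 and 2071 CPM. The lowest OBF1 shRNA library lay far above the highest control library. The change was 2.96-fold (95% interval 2.85 to 3.07, edgeR adjusted p = 1.17e-19), and 3.34% of tested genes rose by more. Per length, as TPM (transcripts per 1000000, from counts divided by gene length), MS4A1 ranked 281 among the tested genes in control shRNA and 92 in OBF1 shRNA libraries.

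Other members of the MS4A family, most of which lie beside MS4A1 in the genome, were at low levels. Of 14 listed, 13 had a row, 7 had no count in any library and 2 were tested. Both were called higher, as were 37.5% of all tested genes. MS4A7, known from macrophages, was 3.76-fold higher at 1.93 ± 0.140 against 7.26 ± 0.255 CPM (n = 3 with SD, edgeR adjusted p = 1.94e-11), and MS4A14 was 2.44-fold higher at 0.486 and 1.20 CPM (edgeR adjusted p = 9.72e-05). MS4A14 rests on 13 to 41 counts per library.

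The complement receptors CR2 and CR1 are neighbours in the genome that stood at very different levels, and CR2 alone of the pair was called. CR2 was at 225, 223 and 229 CPM in control shRNA libraries and at 659.9, 664 and 639.9 CPM in OBF1 shRNA libraries. All OBF1 shRNA libraries were higher, by 2.90-fold (95% interval 2.79 to 3.01, edgeR adjusted p = 2.86e-19). CR1, which binds C3b and C4b and helps their breakdown, had only 20, 25 and 21 counts in control shRNA libraries and 14, 19 and 14 in OBF1 shRNA libraries. Its levels were 0.640, 0.744 and 0.667 CPM against 0.493, 0.623 and 0.447 CPM, lower in each OBF1 shRNA library without passing the test (log2 fold change -0.39, 95% interval -0.95 to 0.16, edgeR adjusted p = 0.184). At this depth the interval covers both a fall to 0.519 of the control level and a rise of 1.12-fold. CR1L, the near relative that follows CR1, had no count in any library, which allows up to 3 counts in each.

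The ratio of CR2 to CR1 per length was 1003, 855 and 982 in control shRNA libraries and 3823, 3041 and 4086 in OBF1 shRNA libraries. These ratios did not overlap and differed by 1.94 on the log2 scale, with an exact two-sided permutation p of 0.1, the smallest that 3 libraries against 3 can give. CD55, a membrane regulator that speeds the decay of complement convertases and the gene on the other side of CR2, fell from 49.2 ± 1.18 to 33.6 ± 0.987 CPM (n = 3 with SD, edgeR adjusted p = 1.01e-09). CD46, the cofactor for complement cleavage that follows CR1L, rose 1.32-fold from 63.8 ± 1.78 to 84.5 ± 0.746 CPM (n = 3 with SD, edgeR adjusted p = 4.8e-09). Neither exceeded 1.5-fold when the fold itself was tested. Of the genes of this cluster, CR2 and CD46 were thus called higher, CD55 lower and CR1 in neither direction.

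Of the 14 listed complement receptors and regulators outside the antigens, 5 were tested. Among these 4 rose (37.5% of all tested genes did) and 1, CD55, fell (37.9% of all), with a median log2 fold change of 0.97. The other gains, C3, C5AR1 and ITGAM, are named after their values were seen and were at means of 1.85 CPM or lower. C3, the source of the fragments that CD21 and CD35 bind, went from 0.322 to 1.19 CPM. CD81, the tetraspanin of the CD21 complex, was picked after its values were seen and fell from 285 ± 10.1 to 238 ± 9.31 CPM (n = 3 with SD, edgeR adjusted p = 6.47e-07). PIK3CD, the phosphoinositide 3-kinase subunit, rose 2.73-fold and PIK3AP1, the B cell adaptor for that kinase, 2.53-fold, with edgeR adjusted p-values of 7.67e-19 and 6.65e-18.

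FCER2 encodes CD23, which binds IgE with low affinity, and changed most among the antigens. It was at 3.59, 4.58 and 4.41 CPM in control shRNA libraries and at 45.0, 43.5 and 45.7 CPM in OBF1 shRNA libraries. The groups were far apart, although the control values rest on 112, 154 and 139 counts. The change was 10.6-fold (95% interval 9.62 to 11.8, edgeR adjusted p = 4.62e-18), and 0.733% of tested genes rose by more. Per length it moved from rank 9356 to rank 3531 of the tested genes. ADAM10, the protease that sheds CD23 and named after its values were seen, was at 73.8 ± 0.867 and 68.5 ± 1.87 CPM (n = 3 with SD, edgeR adjusted p = 0.00987), a call lost without OBF1 shRNA replicate 1 (edgeR adjusted p = 0.0553).

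Among 13 genes listed as other Fc receptors, with ADAM10, 4 were tested. Of these 2 rose and 1 fell, beside 37.5% higher and 37.9% lower among all tested genes. FCGR2B, the inhibitory IgG receptor of B cells, rose 2.43-fold from 3.47 ± 0.402 to 8.47 ± 0.266 CPM (n = 3 with SD, edgeR adjusted p = 1.31e-09). FCMR, the IgM receptor, was at 2.78 ± 0.418 and 4.27 ± 0.132 CPM (n = 3 with SD, edgeR adjusted p = 0.000212).

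Promoter windows are shown for CR2 and CR1, the adjacent pair of which CR2 was called and CR1 was not, for FCER2, the largest gain, and for CD38, the largest loss. They come from RefSeq on GRCh38.p14 and span 250 bases before to 50 bases after an annotated start; the submitters' processing notes name other builds, so no reads are placed in them here. CR2 is at chr1:207454078-207454377 and CR1 at chr1:207495907-207496206, both on the plus strand. FCER2 has windows at chr19:7702082-7702381 and chr19:7699392-7699691 on the minus strand, for separate starts, and CD38 is at chr4:15778078-15778377 on the plus strand. Capitals mark the octamer ATGCAAAT, the sequence that Oct factors bind.
CR2: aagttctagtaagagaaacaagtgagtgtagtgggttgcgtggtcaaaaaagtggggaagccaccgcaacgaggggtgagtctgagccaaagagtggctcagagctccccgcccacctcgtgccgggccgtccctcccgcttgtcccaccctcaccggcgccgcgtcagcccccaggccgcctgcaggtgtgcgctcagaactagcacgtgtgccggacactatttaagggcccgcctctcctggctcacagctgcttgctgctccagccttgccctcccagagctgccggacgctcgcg
CR1: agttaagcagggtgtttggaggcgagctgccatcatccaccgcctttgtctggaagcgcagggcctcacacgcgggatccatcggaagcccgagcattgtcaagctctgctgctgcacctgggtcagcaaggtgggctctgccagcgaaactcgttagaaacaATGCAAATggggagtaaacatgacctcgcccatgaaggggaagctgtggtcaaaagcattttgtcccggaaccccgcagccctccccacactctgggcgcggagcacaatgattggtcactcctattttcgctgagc
FCER2 upstream start: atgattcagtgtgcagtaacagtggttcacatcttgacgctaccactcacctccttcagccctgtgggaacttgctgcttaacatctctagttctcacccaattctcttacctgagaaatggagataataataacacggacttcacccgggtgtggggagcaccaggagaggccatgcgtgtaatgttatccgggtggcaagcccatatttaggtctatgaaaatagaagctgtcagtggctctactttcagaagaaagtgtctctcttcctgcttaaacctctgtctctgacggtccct
FCER2 downstream start: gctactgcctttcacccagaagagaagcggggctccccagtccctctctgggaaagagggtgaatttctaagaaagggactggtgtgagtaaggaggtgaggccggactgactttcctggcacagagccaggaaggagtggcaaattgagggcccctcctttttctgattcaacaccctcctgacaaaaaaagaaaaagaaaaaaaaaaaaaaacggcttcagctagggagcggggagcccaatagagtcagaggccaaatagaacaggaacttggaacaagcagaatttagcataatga
CD38: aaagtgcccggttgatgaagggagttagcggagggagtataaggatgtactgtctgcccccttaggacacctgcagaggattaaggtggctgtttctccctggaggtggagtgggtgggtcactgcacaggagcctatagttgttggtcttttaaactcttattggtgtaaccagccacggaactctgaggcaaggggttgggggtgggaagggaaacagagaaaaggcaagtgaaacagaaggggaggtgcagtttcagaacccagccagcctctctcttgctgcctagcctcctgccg

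Exact matches on either strand were sought for the octamer (ATGCAAAT), for the RBPJ letters CGTGGGAA and for the Ets letters GAGGAAGT in the 14 windows that the RefSeq table holds for 8 of the antigens; MS4A1 and CD37 had none. The single match was an octamer in the CR1 window, on the gene's own strand and beginning 87 bases before the start. Of all 35116 windows in the table, 1.77% hold the octamer, 0.826% the RBPJ letters and 2.59% the Ets letters. A match is a description of the sequence, not of binding, and the absence of these letters in a window says nothing of the factors.

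CD22 and CD72 are inhibitory receptors whose tails recruit the phosphatase SHP-1, and both rose. CD22, a sialic acid-binding lectin and the target of inotuzumab, was at 215, 214 and 219 CPM in control shRNA libraries and at 353, 352 and 347 CPM in OBF1 shRNA libraries. Every OBF1 shRNA library was above every control, by 1.62-fold (95% interval 1.57 to 1.68, edgeR adjusted p = 1.47e-14). CD72, a lectin-like receptor that binds semaphorin 4D, was much scarcer, at 7.97, 8.30 and 7.36 CPM against 23.4, 22.8 and 23.2 CPM. That was a 2.94-fold gain (95% interval 2.68 to 3.22, edgeR adjusted p = 1.46e-13). The ratio of CD22 to CD72 per length was 19.6, 18.7 and 21.6 in control shRNA and 10.95, 11.2 and 10.8 in OBF1 shRNA libraries, with no overlap (exact two-sided permutation p = 0.1, the smallest possible).

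CD72 overlaps the kinase gene TESK1 in the RefSeq annotation, and the strand setting of the counting is not given, so reads of the shared part may not be separable. TESK1, named as a neighbour, was at 35.3 and 52.7 CPM, a 1.49-fold difference (edgeR adjusted p = 3.18e-10). SIT1, the gene on the other side of CD72 and a signalling adaptor of lymphocytes, was 2.12-fold higher at 29.0 and 61.5 CPM (edgeR adjusted p = 1.47e-12). All tested genes in the 2 places on each side of CD72 were called higher, as CD72 was. Over all 8 called antigens, such neighbours did not all follow the direction of the antigen. There were 31 places not taken by an antigen, 10 of them held by tested genes, of which 6 were called in the direction of the antigen, 3 in the other direction and 1 in neither. Of all tested genes, 75.4% were called, 37.5% higher and 37.9% lower. The 6 include TESK1 and also SLC6A16, which overlaps CD37 in the annotation and was called lower (log2 fold change -0.66).

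PTPN6, which encodes SHP-1 itself, was at 2.95, 3.63 and 3.52 CPM in control shRNA libraries and at 84.2, 82.2 and 83.7 CPM in OBF1 shRNA libraries, higher in all of them (24.7-fold, edgeR adjusted p = 1.21e-20). The other tested genes of the CD72 list, SEMA4D, PLXNB2 (both named for being in it) and the adaptor GRB2, were called higher but by less, with a median over the 4 of 0.22 on the log2 scale. A call of higher was made for 37.5% of all tested genes. With library sizes alone 2 of the 4 were called, and GRB2 was not (edgeR adjusted p = 0.0972). Among the Siglecs, the lectin family of CD22, SIGLEC10 was the sole other member tested of 13 listed and rose 2.09-fold from 12.6 ± 0.582 to 26.3 ± 0.686 CPM (n = 3 with SD, edgeR adjusted p = 6.54e-12). SIGLEC10 is known to bind CD24, which had 2 counts in all here. MAG, the Siglec gene next to CD22, was at 0.0850 and 0.120 CPM and was not tested.

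Genes that make, attach or remove sialic acid, the ligand of CD22, split into 8 higher and 5 lower of 14 tested, with a median log2 fold change of 0.18. A call in either direction was made for 75.4% of all tested genes, 37.5% higher and 37.9% lower. ST6GAL1, the enzyme that makes the linkage CD22 prefers, was picked after its values were seen and was 1.12-fold higher at 735 and 821 CPM (edgeR adjusted p = 5.46e-06). Per length, its libraries overlapped between the groups (452 ± 10.9 and 442 ± 5.88 TPM, n = 3 with SD), so this small gain depends on the measure of level. The edgeR call of ST6GAL1 was kept with library sizes alone and was lost when the fold was tested against 1.5. ST3GAL2 rose 2.92-fold from 35.1 ± 2.58 to 103 ± 3.11 CPM and ST3GAL5, the ganglioside GM3 synthase, 5.17-fold from 1.97 ± 0.0761 to 10.2 ± 0.709 CPM (n = 3 with SD, edgeR adjusted p = 9.89e-16 and 4.29e-13).

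**Figure D2:**
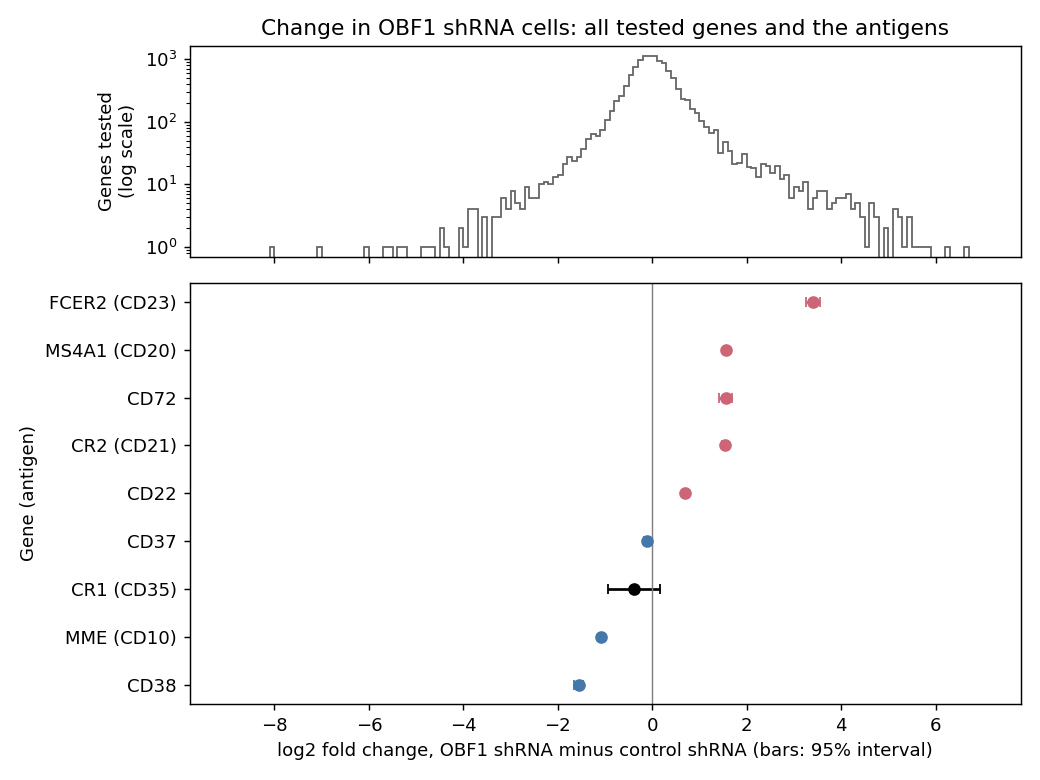
Upper panel, number of tested genes (log axis) by log2 fold change of OBF1 shRNA against control shRNA; lower panel, the 9 tested antigens on the same axis with 95% intervals from the edgeR fit (red, called higher; blue, called lower; black, not called). FCER2 lies at 3.41, MS4A1, CD72 and CR2 between 1.54 and 1.56, and the interval of CR1 crosses 0.

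CD37, a tetraspanin of mature B cells and an antibody target, changed little. It was at 181, 185 and 185 CPM in control shRNA libraries and at 169.7, 170.5 and 167 CPM in OBF1 shRNA libraries. The groups did not overlap, and the fall was 1.09-fold (95% interval 1.045 to 1.13, edgeR adjusted p = 0.000498). It did not exceed 1.5-fold when that was tested (glmTreat adjusted p = 1). The other tetraspanins gave 7 higher and 6 lower of 15 tested, with a median log2 fold change of 0.04. Among all tested genes 75.4% were called, 37.5% higher and 37.9% lower. CD82 rose 3.37-fold from 63.9 ± 2.46 to 215 ± 7.09 CPM and CD53, a tetraspanin of leukocytes, 1.93-fold from 232 ± 4.29 to 448 ± 2.63 CPM (n = 3 with SD, edgeR adjusted p = 3.06e-18 and 1.79e-16). RefSeq places SLC6A16 and TEAD2 across the edges of CD37; their 589 and 19 counts over all libraries are few beside the 5652 to 6223 counts of CD37 in each control library.

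CD24, a small glycoprotein held by a lipid anchor, had 1 count in control shRNA replicate 2, 1 in OBF1 shRNA replicate 2 and none elsewhere. No comparison was possible, since 3 counts, the limit that a count of 0 allows, correspond to 0.0893 to 0.106 CPM in these libraries. RefSeq names 5 CD24 pseudogenes, and 0 of them have a row in the table. How reads that match several copies were counted is not given, so the value is uncertain and does not show that the transcript is absent.

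The ectoenzymes CD38 and CD10, the germinal centre antigens of the list, both fell. CD38, which splits NAD and is the target of daratumumab, was at 69.7, 69.8 and 66.0 CPM in control shRNA libraries and at 24.6, 22.7 and 22.5 CPM in OBF1 shRNA libraries. No library of either group came near the other group. The fall was 2.95-fold (95% interval 2.76 to 3.15, edgeR adjusted p = 8.18e-16), and 1.84% of tested genes fell by more. MME, a surface peptidase known as the common acute lymphoblastic leukaemia antigen, was at 322, 314 and 322 CPM against 150.4, 154 and 151 CPM, with all OBF1 shRNA libraries lower. It fell 2.11-fold (95% interval 2.03 to 2.19, edgeR adjusted p = 5.11e-17), and 3.88% of tested genes fell by more.

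Per length, MME and CD38 had overlapping levels in control cells, with ratios of 1.003, 0.978 and 1.06, and ratios of 1.33, 1.47 and 1.46 in OBF1 shRNA libraries. The groups of ratios did not overlap (exact two-sided permutation p = 0.1, the smallest possible). BST1, the paralog that lies beside CD38, was at 0.0834 and 0.0671 CPM and was not tested. Of 7 tested surface peptidases and nucleotide enzymes outside this pair, 6 rose and 1, ECE2, fell, a median log2 fold change of 0.71. By the same test 37.5% of all tested genes rose and 37.9% fell. ECE2, named after its values were seen, was at 31.8 and 29.4 CPM but was not called by DESeq2 (adjusted p = 0.112), nor by edgeR without any 1 library other than OBF1 shRNA replicate 1 (edgeR adjusted p from 0.0506 to 0.186). ECE1, an endothelin-converting relative of MME, rose 1.55-fold from 109 ± 1.25 to 170.1 ± 2.70 CPM and GGT1, gamma-glutamyltransferase, 2.02-fold from 4.51 ± 0.0569 to 9.09 ± 0.543 CPM (n = 3 with SD, edgeR adjusted p = 3.96e-13 and 6.59e-09).

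Levels of the antigens relative to each other were set per length, in TPM, which carries no composition factor. Differences between groups in TPM therefore need not match the edgeR fit, from which changes of single antigens were read. In control shRNA libraries MS4A1 stood far above the rest at 496 ± 14.6 TPM (SD, n = 3, as for all levels here). CD22 (184 ± 3.94), CR2 (158 ± 3.97) and CD37 (149 ± 1.62 TPM) followed, then MME (135 ± 3.67) and CD38 (134 ± 3.83 TPM), the only neighbours in the order whose libraries overlapped. CD72 (9.24 ± 0.484) and FCER2 (5.61 ± 0.664 TPM) were much lower, and CR1 was at 0.167 ± 0.0109 TPM. In OBF1 shRNA libraries MS4A1 was again first at 1284 ± 21.6 TPM. CR2 (399.8 ± 11.2), CD22 (261 ± 4.29) and CD37 (120.4 ± 2.14 TPM) came next. MME (56.2 ± 1.26), FCER2 (52.4 ± 0.857), CD38 (39.7 ± 1.94) and CD72 (23.8 ± 0.169 TPM) were lower again and CR1 was at 0.112 ± 0.0207 TPM, with no overlap between neighbours. CR2 moved past CD22, and FCER2 past both CD72 and CD38.

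The summed level of the 10 transcripts was 1271 ± 24.6 TPM in control shRNA and 2238 ± 37.9 TPM in OBF1 shRNA libraries (SD, n = 3), and without MS4A1 it was 775 ± 10.9 and 954 ± 18.7 TPM. In normalised CPM, which has a composition factor and no length term, the sums were 1713 to 1753 in control shRNA and 3468 to 3527 in OBF1 shRNA libraries. MS4A1 held 39.0% ± 0.439 of the sum in control shRNA and 57.4% ± 0.310 in OBF1 shRNA libraries (SD, n = 3). CR2 held 12.4% and 17.9%, CD38 10.5% and 1.77%, and MME 10.7% and 2.51% in the same order of groups. CD22 held 14.5% and 11.7%, a smaller share beside a higher level. MS4A1 and CR2, both called higher, had ratios to each other of 3.13, 3.14 and 3.17 in control shRNA and 3.17, 3.19 and 3.28 in OBF1 shRNA libraries. These ratios overlapped and differed by 0.03 on the log2 scale (exact two-sided permutation p = 0.2), which does not show that they are equal. The ratio of MS4A1 to CD37 was between 3.25 and 3.38 in control shRNA and between 10.6 and 10.7 in OBF1 shRNA libraries, and that of CR2 to FCER2 between 25.4 and 32.7 and between 7.29 and 7.96, both without overlap (exact two-sided permutation p = 0.1). Over the 6 pairs compared, Benjamini-Hochberg adjusted values were 0.12 for 5 pairs and 0.2 for MS4A1 and CR2. With 3 libraries per group the smallest possible p is 0.1, so no pair could pass the threshold used for genes. The permutation p-values of the pairs therefore decide nothing. The pairs were chosen with earlier results of these data known, and their ratios restate the changes of the single antigens. How often other pairs of genes show no overlap was not tested.

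**Figure D3:**
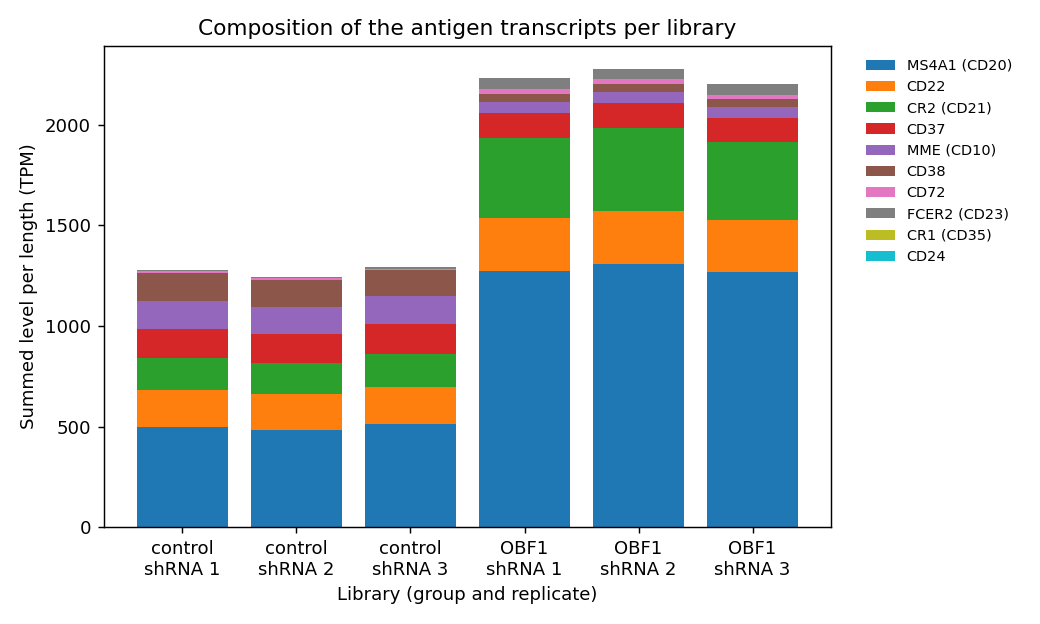
Stacked level per length (TPM) of the 10 antigen transcripts in each library, coloured by gene. The 3 OBF1 shRNA bars reach 2204 to 2279 TPM against 1244 to 1292 TPM in control shRNA libraries, with taller MS4A1 and CR2 segments and shorter CD38 and MME segments.

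Other antigens that antibodies or engineered cells target in B cell lymphoma were mostly higher. Of 16 listed, 14 were tested, 10 rose, 3 fell and 1 did not pass, with a median log2 fold change of 1.09. CD40, the receptor for T cell help, was at 77.3, 75.4 and 77.4 CPM in control shRNA and at 307, 296 and 303 CPM in OBF1 shRNA libraries, a 3.94-fold gain (edgeR adjusted p = 3.62e-20). CD86, a costimulatory ligand, rose 5.43-fold from 28.8 ± 1.01 to 156 ± 4.60 CPM (n = 3 with SD, edgeR adjusted p = 9.22e-20). Both lay wholly above their control libraries. CD79B, ROR1 and TNFRSF17 were the 3 that fell, and are named with their values known. CD79B, the target of polatuzumab, was at 664 ± 24.9 and 609.5 ± 22.2 CPM (n = 3 with SD, edgeR adjusted p = 0.00151), ROR1 was under 1 CPM on average in both groups, and TNFRSF17 was called by neither DESeq2 (adjusted p = 0.108) nor edgeR without control shRNA replicate 2 (adjusted p = 0.0566), replicate 3 of the same group (adjusted p = 0.118) or OBF1 shRNA replicate 2 (adjusted p = 0.208). CD52, the target of alemtuzumab and also picked afterwards, rose 3.17-fold from 12.3 to 38.8 CPM (edgeR adjusted p = 2.89e-15). Over all related lists together, 48 of 70 tested genes rose and 17 fell, with a median log2 fold change of 0.49, beside 37.5% of all tested genes higher and 37.9% lower. The related lists, too, were chosen with earlier results of these data known.

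**Figure D4:**
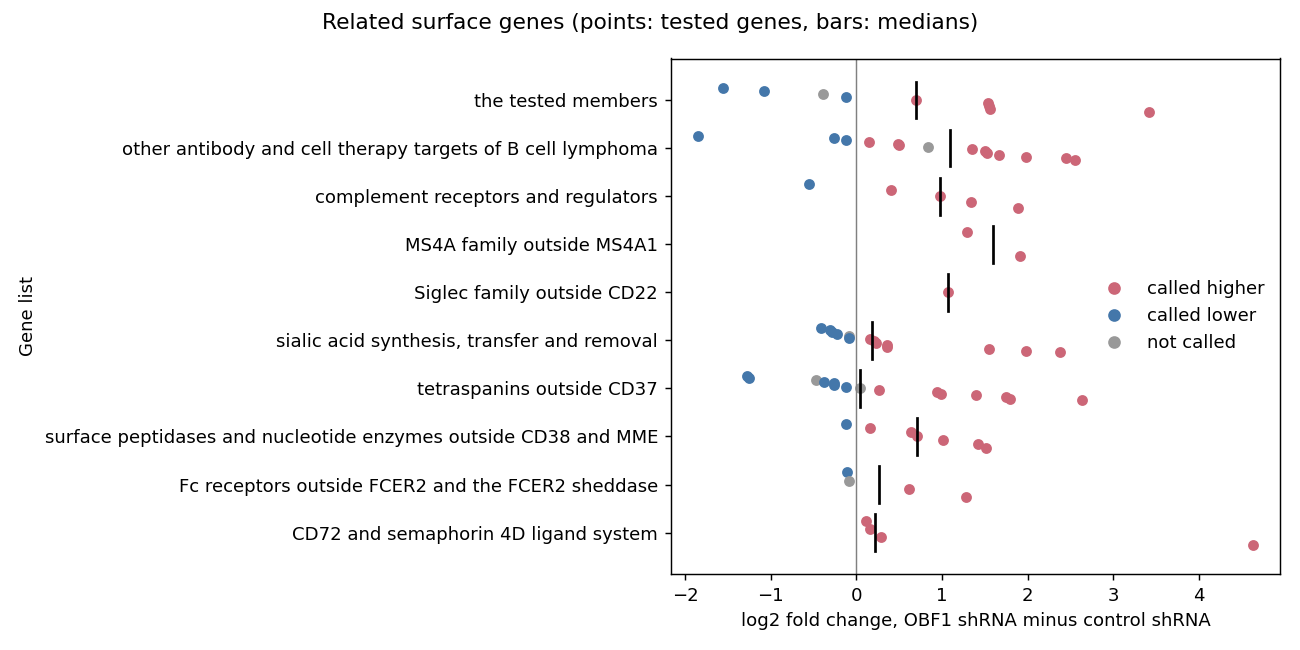
log2 fold change of each tested gene (points; red, called higher; blue, called lower; grey, not called) in the antigen list and 9 lists of related genes, with a black bar at each median. Medians run from 0.04 for the other tetraspanins to 1.60 for the 2 tested MS4A genes, and PTPN6 is the outlying point at 4.63.

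CD21, CD35 and CD23 are also known from follicular dendritic cells and CD10 from stromal cells, so markers of these and other cells were read beside the antigens. The 10 markers of follicular dendritic cells and stroma summed to 27.0 to 29.2 CPM in control shRNA and to 179 to 183 CPM in OBF1 shRNA libraries. Of the 2 that were tested, VIM, also expressed by lymphocytes, rose from 25.2 to 149 CPM and COL1A1 from 2.64 to 32.2 CPM (edgeR adjusted p = 6.76e-20 and 3.1e-18); both were named after their values were seen. The other 8, CXCL13, FDCSP, CLU, PDPN, COL1A2, COL3A1, PDGFRB and LTBR, were each at a mean of 0.0525 CPM or lower in both groups, with FDCSP, PDPN and LTBR at 0 in all libraries. The 10 myeloid markers summed to 3.45 to 3.59 and 3.24 to 3.61 CPM, with 3 of them at 0 in all libraries, MPO among them. The 10 T and NK cell markers with a row summed to 0.160 to 0.268 and 0.879 to 1.02 CPM, with NKG7 at means of 0.144 and 0.789 CPM and CD3D, CD2, CD7, GNLY and NCAM1 at 0 in all libraries. Markers of the packaging line 293T stayed at or under 0.506 CPM in sum and erythroid markers at or under 0.0638 CPM. What part, if any, such cells have in the changes of CR2, FCER2, CD38 or MME was not tested.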

How the data were processed

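The 6 Raji libraries were made from RNA with a stranded mRNA kit, per the labels' protocols. The authors deposited raw read counts per gene in 1 table with a column of gene lengths, and all 6 count columns were used. The submitters' processing notes list builds hg19 and mm9; for aligner, counter, annotation and strand setting the sources used here name nothing. Symbols for 23308 of 23459 gene identifiers came from a RefSeq table of GRCh38.p14, and promoter windows from RefSeq on that build.

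Counts were tested in R 4.3.3 with edgeR 4.0.16: filterByExpr (min.count 10, min.total.count 15), TMM factors, the quasi-likelihood F test on all 6 libraries without covariate, and Benjamini-Hochberg adjustment over all 12010 tested genes at 0.05. Intervals of 95% are approximate and use a standard error taken as the size of the log2 fold change over the square root of F. The limit of 3 counts that a count of 0 allows covers counting error only. On simulated counts (11819 genes) recovery was 74% for genes set to differ 1.25-fold, 94% for 1.5-fold and 100% for both 2-fold and 4-fold, and 3.72% of its calls were unchanged genes. At each fold 47 to 50 genes were set to differ there, whereas 9058 of the 12010 tested genes were called in the data. Whether these recoveries and that share hold for the real comparison was not tested. Replicates differed by more than counting error (chi-square per degree of freedom 1.89 to 3.28), so none was merged.

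Antigens, related lists and tests were chosen with earlier results of these data known. Named by rule are the antigens, POU2AF1 and the 2 smallest p-values of each related list; others are said to be named afterwards. Alternatives were DESeq2 1.42.0, voom in limma 3.58.1, glmTreat against 1.5-fold, RLE, upper-quartile and no composition factors, other low-count filters, the replicate number as a block, and each library left out. Some results of the related lists are not reported here.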

Additional observations from a re-analysis of the deposited data

How the results depend on the processing

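The 5 gains and 3 losses kept their direction and their call under all 15 alternatives, except that CD37 (log2 fold change -0.12) was not called when the fold was tested against 1.5 (glmTreat adjusted p = 1). Over the alternatives the log2 fold change ranged from 1.46 to 1.59 for MS4A1, 1.43 to 1.55 for CR2, 3.30 to 3.49 for FCER2, 0.59 to 0.71 for CD22, 1.44 to 1.60 for CD72, -0.23 to -0.11 for CD37, -1.67 to -1.53 for CD38 and -1.18 to -1.06 for MME. CR1 was called under none of its 14 alternatives (log2 fold change -0.54 to -0.29, lowest adjusted p = 0.0915 with library sizes alone), and its low counts limit what could be detected. glmTreat lowered the count of called genes from 9058 to 1967 (1180 higher, 787 lower) and that of related genes to 29 higher and 2 lower. By CPM, with no length term, MS4A1 held 40.6% of the antigens' sum in control shRNA and 59.4% in OBF1 shRNA libraries. With the replicate block 8759 genes and the same number of antigens, 8, were called. Same-numbered libraries did not deviate together (correlations 0.127, -0.324 and -0.300). Deviations from a mean of 3 libraries depend on each other, so these values cannot show whether same-numbered libraries were handled together. Differently numbered libraries gave -0.251 to 0.468, the highest for control shRNA replicate 2 with OBF1 shRNA replicate 3. Whether such libraries share a batch was not tested, and the main fit has no term for it. Outside the antigens, 39 of 553 values for single named genes lost their call and none reversed.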
